A study of Homo sapiens with 6 samples.

Results

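PMEPA1 and 9 other genes of TGF-beta signalling were followed in MDA-MB-231, a human breast cancer cell line that lacks oestrogen and progesterone receptors, with and without knockdown of MYOSIN10, the gene now named MYO10. The 10 genes were the ligands TGFB1 and TGFB2, the receptors TGFBR1 and TGFBR2, the signal carriers SMAD3 and SMAD4, and the brakes SMAD7, SKI, SKIL and PMEPA1. They were read by the 33 probe sets that the array's annotation gives to 1 of these symbols alone, out of 54675 probe sets on the array. Each probe set is a handful of short oligonucleotides aimed at the same stretch of a transcript. PMEPA1 was chosen by its log2 fold change in this same comparison, in an earlier account of these arrays, and the other 9 genes were added for their place in the pathway with that account known.

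The arrays came from 3 samples of cells that stably expressed MYOSIN10 shRNA and 3 samples that stably expressed scramble shRNA, so every sample carried a hairpin. Cells of both groups grew in Leibovitz L-15 medium with serum, and no treatment with TGF-beta is recorded in the labels. The sources used here do not say how many hairpin sequences or clones were used, nor whether samples 1 to 3 were separate cultures, so the errors and p-values below cover only how far these samples differ, and that spread may be technical. RNA was read from whole cultures, in which fewer cells with a message and less message per cell cannot be told apart.

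TGF-beta is a secreted cytokine that binds the receptor TGFBR2, which then recruits and activates TGFBR1. TGFBR1 phosphorylates SMAD2 and SMAD3, which join SMAD4, enter the nucleus and switch genes on or off. Brakes act on the same pathway, and SMAD7, SKIL and PMEPA1 are among the genes it switches on. SMAD7 blocks the receptor, and SKI and SKIL hold back SMAD complexes on DNA. PMEPA1, a membrane protein, binds SMAD2 and SMAD3 before they can be activated. In many tumour cells of mesenchymal type, TGF-beta supports invasion.

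Values are log2(signal + 16), where the signal is the deposited array value on its linear scale and the added 16 damps the scatter of dim signals. All differences are MYOSIN10 shRNA minus scramble shRNA on that scale. Of the 33 probe sets, 31 reached the signal needed for testing. Those 31 had a median log2 fold change of 0.14, against -0.0021 over all 33334 probe sets tested, and the 28 of them outside PMEPA1 had a median of 0.068. A probe set was called where its adjusted p was under 0.05 (limma, Benjamini-Hochberg over all 33334), which held for 1.06% of all probe sets tested (0.693% higher and 0.369% lower). Among the 31, the 3 called were the 3 probe sets of PMEPA1, and of the other 28 none was called, with 3 at an unadjusted p under 0.05, against 13.2% of all probe sets tested. The number called was 2 without scramble array 1, 1 without MYOSIN10 shRNA array 1 or 3 or scramble array 3, and 4 without scramble array 2. Since the members were picked with this comparison known, these counts describe the members and support nothing further.

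The knockdown was visible in MYO10, a motor protein that carries cargo to the tips of filopodia. Probe set 201976_s_at of MYO10 had log2 signals of 10.70, 11.39 and 10.64 on MYOSIN10 shRNA arrays 1 to 3, against 11.57, 11.96 and 11.86 on scramble arrays 1 to 3. Every knockdown array was below the lowest scramble array, and MYOSIN10 shRNA array 2 kept the most MYO10 message of its group. The log2 fold change was -0.88 ± 0.17 (SE, limma adjusted p = 0.0318), and it was not called without MYOSIN10 shRNA array 1 (limma adjusted p = 0.145) or 3 (0.151) or scramble array 1 (0.0762) or 3 (0.163). Of the 4 other MYO10 probe sets, 3 were lower, at -0.74, -0.58 and -0.84, and 1 was higher at 0.31, none of them called.

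Correlations between arrays over 14182 genes ran from 0.978 to 0.987. The first principal component, with 29.9% of the variance, placed scramble array 2 (-4.45) nearer to the MYOSIN10 shRNA arrays (-20.1 to -14.6) than to scramble arrays 1 and 3 (28.0 and 25.7), so scramble array 2 stood apart from its group. The second component, with 23.4%, separated both arrays numbered 2 (-19.9 for MYOSIN10 shRNA and -23.7 for scramble) from the other 4 (-0.41 to 22.3). The cell line's markers were as follows: vimentin (VIM) lay at 14.9 and 14.8 in MYOSIN10 shRNA and scramble cells, and the keratins KRT8 and KRT18 at 12.5 and 12.2 and at 13.5 and 13.2. E-cadherin (CDH1), the progesterone receptor (PGR) and the leukocyte marker PTPRC did not reach the signal needed for testing. The oestrogen receptor ESR1, which the line is known to lack, had a brightest probe set at 6.94 and 6.99 in MYOSIN10 shRNA and scramble cells, close to the signals of many dim probe sets here. EPCAM, an epithelial adhesion molecule, lay at 8.77 and 7.99 and the endothelial marker PECAM1 at 6.78 and 6.44, and no marker among the 6 tested was called.

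PMEPA1 was higher with MYOSIN10 shRNA on all 3 of its probe sets, by 2.07-fold to 2.93-fold. Probe set 222449_at had log2 signals of 11.66, 11.51 and 11.88 on MYOSIN10 shRNA arrays 1 to 3, against 10.04, 10.20 and 10.16 on scramble arrays 1 to 3. Its group means were 11.69 ± 0.19 with MYOSIN10 shRNA and 10.13 ± 0.081 with scramble shRNA (SD, n = 3 each). The lowest knockdown array stood 1.32 above the highest scramble array, and the log2 fold change was 1.55 ± 0.11 (SE). This is the value that led to the choice of PMEPA1, so it is given with no test.

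The other PMEPA1 probe sets gave smaller log2 fold changes. Probe set 222450_at had log2 signals of 10.66, 9.75 and 10.69 on MYOSIN10 shRNA arrays 1 to 3, against 9.54, 9.0 and 9.13 on scramble arrays 1 to 3, a log2 fold change of 1.14 ± 0.22 (SE). Probe set 217875_s_at had 9.10, 8.68 and 9.17 on the MYOSIN10 shRNA arrays, against 8.09, 7.83 and 7.88 on the scramble arrays, a log2 fold change of 1.05 ± 0.16 (SE). The groups did not overlap on either probe set, although on 222450_at MYOSIN10 shRNA array 2 lay only 0.20 above scramble array 1. On all 3 probe sets, MYOSIN10 shRNA array 2, the knockdown array with the most MYO10 message left on 201976_s_at, had the lowest PMEPA1 of its group. That is an observation on 3 arrays, and array 2 also stood apart from the rest of its group over all genes, so the part of either in the PMEPA1 value was not tested. Without both arrays numbered 2, the log2 fold changes of the 3 probe sets were 1.67, 1.34 and 1.15.

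**Figure D1:**
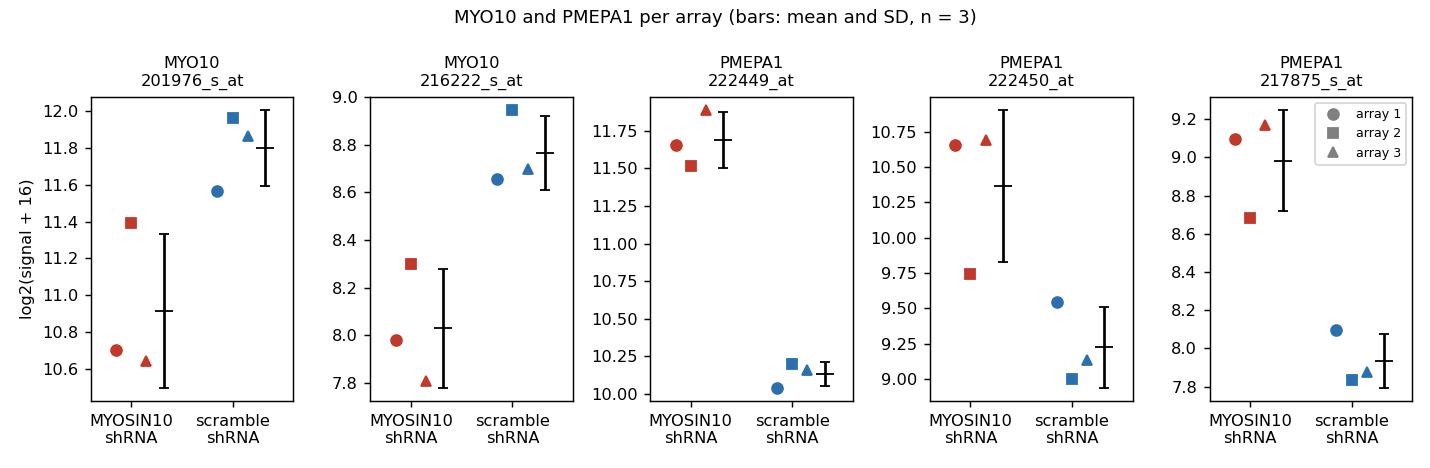
Log2(signal + 16) of the first 2 MYO10 probe sets and the 3 PMEPA1 probe sets on each array, with MYOSIN10 shRNA in red left of scramble shRNA in blue, the marker shape giving the array number and black bars the mean and SD (n = 3). Each panel has its own vertical scale. MYO10 is lower and PMEPA1 higher on every MYOSIN10 shRNA array, and MYOSIN10 shRNA array 2 (square) is the closest to the scramble arrays in each of the 5 panels.

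SKI has no window among the annotated start sites used here. The sequences around annotated start sites of PMEPA1, SMAD7 and SKIL are shown as description, and their part in any difference was not tested. They are from RefSeq (GRCh38.p14) and run from 250 bases before to 50 bases after a start, 5′ to 3′ on the gene's strand. Capitals mark CAGAC, the short motif that SMAD3 and SMAD4 can bind, or its reverse complement GTCTG. PMEPA1 has 4 annotated start windows, on the minus strand of chromosome 20, of which 3 hold the motif. Of the 4 windows the middle pair is printed, here called upstream (chr20:57710528-57710827) and downstream (chr20:57709966-57710265). For SMAD7 the most upstream of 3 windows is printed (minus strand, chr18:48950916-48951215), and for SKIL its single window (plus strand, chr3:170357465-170357764). Of the 3 SMAD7 windows 2 hold the motif. Every window printed here holds it, and the windows without it are not shown.
PMEPA1 upstream: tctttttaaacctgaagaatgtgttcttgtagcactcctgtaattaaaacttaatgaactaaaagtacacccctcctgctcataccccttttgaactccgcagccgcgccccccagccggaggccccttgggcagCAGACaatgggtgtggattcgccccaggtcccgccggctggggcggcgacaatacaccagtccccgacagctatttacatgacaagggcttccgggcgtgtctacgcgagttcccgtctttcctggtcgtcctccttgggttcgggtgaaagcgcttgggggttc
PMEPA1 downstream: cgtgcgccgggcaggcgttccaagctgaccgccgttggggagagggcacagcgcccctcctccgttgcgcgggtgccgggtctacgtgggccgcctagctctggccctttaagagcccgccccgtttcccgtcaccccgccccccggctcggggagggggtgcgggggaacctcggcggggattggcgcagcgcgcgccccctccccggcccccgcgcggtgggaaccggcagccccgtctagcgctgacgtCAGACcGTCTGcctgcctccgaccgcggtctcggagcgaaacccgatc
SMAD7: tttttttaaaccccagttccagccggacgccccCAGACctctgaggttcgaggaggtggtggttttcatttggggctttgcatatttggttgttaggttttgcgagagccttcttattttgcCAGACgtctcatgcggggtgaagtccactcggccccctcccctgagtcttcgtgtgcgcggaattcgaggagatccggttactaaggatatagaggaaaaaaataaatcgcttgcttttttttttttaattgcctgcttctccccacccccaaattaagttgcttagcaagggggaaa
SKIL: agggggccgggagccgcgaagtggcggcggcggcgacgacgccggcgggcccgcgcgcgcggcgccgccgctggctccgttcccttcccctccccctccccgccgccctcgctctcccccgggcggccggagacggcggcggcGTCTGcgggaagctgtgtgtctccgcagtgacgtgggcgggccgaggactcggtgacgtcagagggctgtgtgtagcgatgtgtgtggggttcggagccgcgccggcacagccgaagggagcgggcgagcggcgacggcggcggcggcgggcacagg

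The downstream PMEPA1 window held the motif at 2 places in opposite orientations, 1 base apart, close after the start. The SMAD7 window held 2 copies, and the upstream PMEPA1 window and the SKIL window 1 each. Over all 26 windows of the 9 genes that the promoter table lists, 14 held CAGAC or GTCTG, against 45.3% of all 35116 windows in the table. The palindrome GTCTAGAC, a stronger SMAD site, was in none of the 26 and in 0.202% of all windows. These matches describe letters in short windows and say nothing of binding in these cells.

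None of the other 3 brakes was called, and on all 8 of their tested probe sets the groups overlapped. Over all probe sets tested, 1.06% were called and 18.1% had groups that did not overlap, so neither count sets these brakes apart. SMAD7, which recruits ubiquitin ligases to the active receptor, had log2 signals of 9.48, 9.20 and 9.28 on MYOSIN10 shRNA arrays 1 to 3, against 9.14, 9.23 and 9.17 on scramble arrays 1 to 3. The groups overlapped through MYOSIN10 shRNA array 2, and the log2 fold change was 0.14 ± 0.12 (SE, limma adjusted p = 0.69) with a 95% interval from -0.12 to 0.40. That interval leaves room for a small difference in either direction.

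SKI, a nuclear corepressor of SMAD complexes, was read by 3 probe sets, with log2 fold changes of 0.0075, 0.16 and -0.15. On 229265_at, SKI had log2 signals of 10.78, 11.00 and 10.86 on the MYOSIN10 shRNA arrays, against 10.85, 11.00 and 10.76 on the scramble arrays. The groups overlapped, and the 95% interval of the log2 fold change ran from -0.21 to 0.22 (limma adjusted p = 0.986). The groups also overlapped on both other probe sets of SKI.

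SKIL, a close relative of SKI that TGF-beta first degrades and then induces again, was read by 5 probe sets, of which 4 were tested. On 225227_at, SKIL had log2 signals of 10.11, 10.20 and 10.41 on the MYOSIN10 shRNA arrays, against 10.20, 10.70 and 10.18 on the scramble arrays. The groups overlapped, scramble array 2 held the highest value, and the log2 fold change was -0.12 with a 95% interval from -0.43 to 0.19 (limma adjusted p = 0.79). The other tested SKIL probe sets gave -0.052, 0.040 and 0.34, all with overlapping groups, and the one at 0.34 was dim, with a 95% interval from -0.86 to 1.54. The untested 232379_at had group means of 4.73 with MYOSIN10 shRNA and 4.90 with scramble shRNA.

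**Figure D2:**
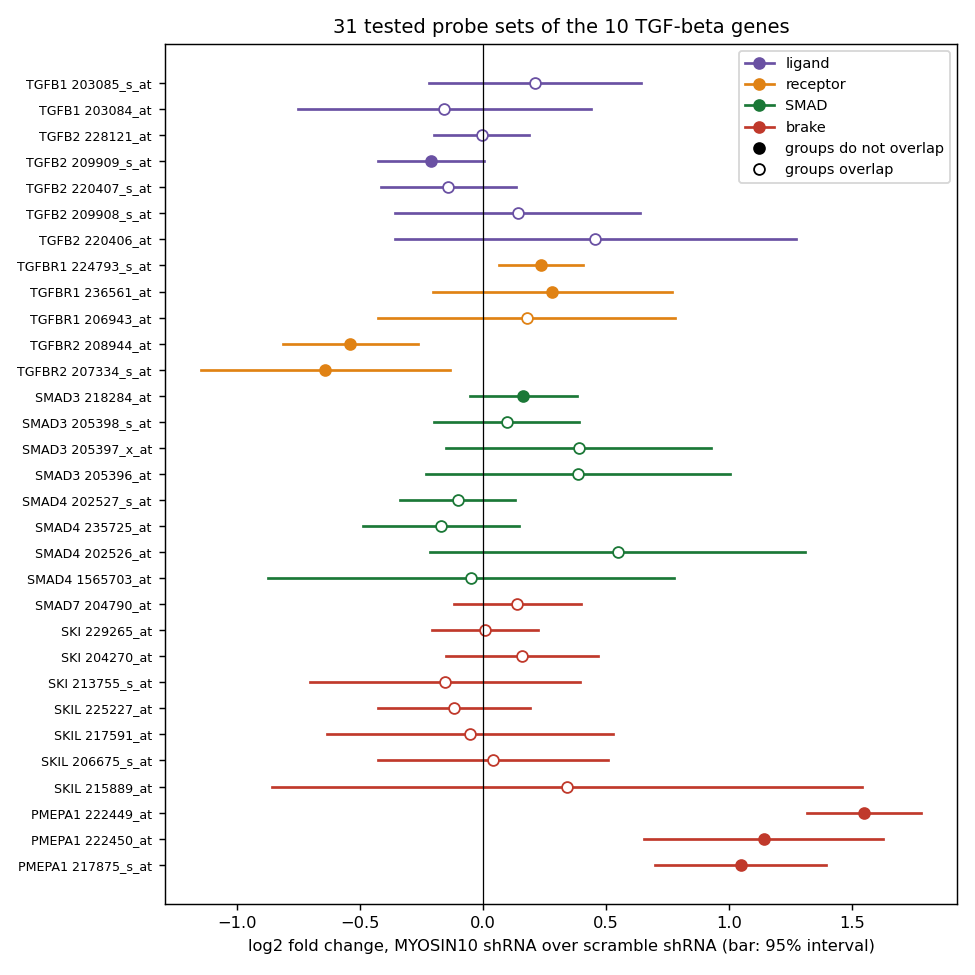
Log2 fold change of MYOSIN10 shRNA over scramble shRNA for the 31 tested probe sets of the 10 genes, in order of role, with bars for the 95% interval of each difference before adjustment and filled points where the 3 arrays of one group lie entirely to one side of the other 3. The 3 PMEPA1 probe sets (1.05 to 1.55) stand to the right, the 2 TGFBR2 probe sets (-0.64 and -0.54) to the left, and the intervals of SMAD7, SKI and SKIL cross 0.

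The receptors differed in opposite directions without reaching the threshold. TGFBR2, the receptor that binds the ligand, was lower on both of its probe sets with no overlap between the groups. On 208944_at, TGFBR2 had log2 signals of 12.99, 12.66 and 12.90 on MYOSIN10 shRNA arrays 1 to 3, against 13.42, 13.10 and 13.65 on scramble arrays 1 to 3. The highest knockdown array lay 0.11 below the lowest scramble array, and in both groups array 2 was the lowest. The log2 fold change was -0.54 ± 0.13 (SE), a signal 1.45-fold lower with MYOSIN10 shRNA, and it was not called (limma adjusted p = 0.0663, 95% interval -0.81 to -0.27). It would pass without scramble array 2, the array that stood apart from its group (-0.69, limma adjusted p = 0.00393), and it stood at -0.41 (limma adjusted p = 0.258) without scramble array 3.

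On the dim 207334_s_at, TGFBR2 had log2 signals of 6.43, 7.32 and 7.14 on the MYOSIN10 shRNA arrays, against 7.61, 7.57 and 7.63 on the scramble arrays. The scramble arrays lay close together (SD 0.027) while the knockdown arrays were spread (SD 0.47), with array 1 the lowest. The log2 fold change was -0.64 ± 0.23 (SE, limma adjusted p = 0.25).

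TGFBR1, the kinase that phosphorylates SMAD2 and SMAD3, had positive log2 fold changes on its 3 probe sets. On 224793_s_at, TGFBR1 had log2 signals of 12.23, 12.07 and 12.24 on the MYOSIN10 shRNA arrays, against 11.94, 11.92 and 11.98 on the scramble arrays. The groups did not overlap, with MYOSIN10 shRNA array 2 closest to the scramble arrays, and the log2 fold change was 0.24 ± 0.079 (SE, limma adjusted p = 0.214), a signal 1.18-fold higher. The other 2 probe sets were dim. On 236561_at, with group means of 6.87 in MYOSIN10 shRNA cells and 6.59 in scramble cells, the log2 fold change was 0.28 and the groups did not overlap by a margin of 0.020. On 206943_at, with 6.69 and 6.51, it was 0.18 with overlapping groups.

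Of the 31 tested probe sets, 6 lay higher and 3 lower in every MYOSIN10 shRNA array than in every scramble array, and 22 overlapped. Such a separation was seen in 9.2% of all probe sets tested for higher values and 8.94% for lower ones. PMEPA1 was chosen by this comparison, and of the 28 probe sets outside it 3 lay higher and 3 lower, near those shares. Besides the 3 of PMEPA1, the higher ones were 2 of TGFBR1 and 1 of SMAD3, and the lower ones were both of TGFBR2 and 1 of TGFB2.

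**Figure D3:**
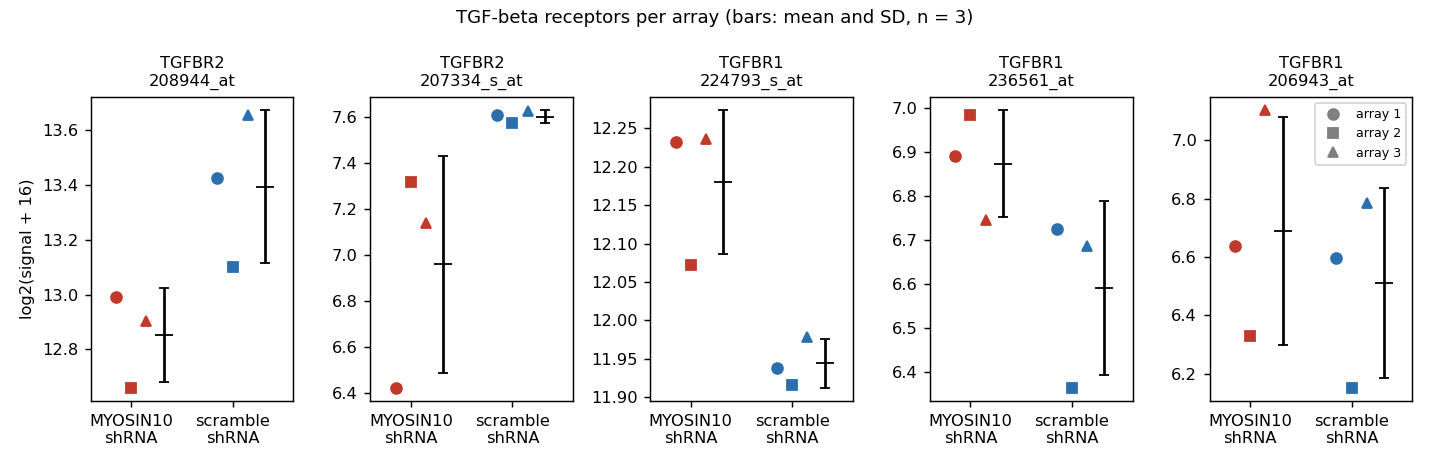
Log2(signal + 16) of the 2 TGFBR2 and 3 TGFBR1 probe sets on each array, with MYOSIN10 shRNA in red left of scramble shRNA in blue, the marker shape giving the array number and black bars the mean and SD (n = 3). Each panel has its own vertical scale. Both TGFBR2 panels show the knockdown arrays below the scramble arrays, and TGFBR1 on 224793_s_at shows the reverse with a log2 fold change of 0.24.

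The SMADs that carry the signal showed no called change. SMAD3, the receptor-activated SMAD that binds DNA directly, had 4 probe sets with positive log2 fold changes between 0.096 and 0.39. On 218284_at, SMAD3 had log2 signals of 11.09, 10.98 and 11.00 on the MYOSIN10 shRNA arrays, against 10.95, 10.68 and 10.95 on the scramble arrays. The groups did not overlap by a margin of 0.029, with scramble array 2 low, and the log2 fold change was 0.16 ± 0.099 (SE, limma adjusted p = 0.522). The other 3 SMAD3 probe sets had overlapping groups.

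SMAD4, the partner that all receptor-activated SMADs share, had 5 probe sets, of which 4 were tested. On 202527_s_at, SMAD4 had log2 signals of 10.05, 10.13 and 9.92 on the MYOSIN10 shRNA arrays, against 10.18, 10.23 and 10.00 on the scramble arrays, a log2 fold change of -0.10 with a 95% interval from -0.34 to 0.13 (limma adjusted p = 0.75). The other tested SMAD4 probe sets gave -0.17, 0.55 and -0.049, and all 4 had overlapping groups. The value of 0.55 came from the dim 202526_at, with 6.15 ± 0.098 in MYOSIN10 shRNA cells and 5.60 ± 0.53 in scramble cells (SD, n = 3 each) and a 95% interval from -0.21 to 1.31. The untested 1565702_at had group means of 4.42 with MYOSIN10 shRNA and 4.39 with scramble shRNA.

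The ligand messages also held no call. TGFB1, the ligand most widely made by tumour and immune cells, was read by 2 dim probe sets with opposite signs. On 203085_s_at, TGFB1 had log2 signals of 7.53, 7.34 and 7.42 on the MYOSIN10 shRNA arrays, against 7.54, 7.13 and 6.99 on the scramble arrays. The groups overlapped and the log2 fold change was 0.21 ± 0.20 (SE, limma adjusted p = 0.72), while 203084_at stood at -0.16 with a 95% interval from -0.75 to 0.44.

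TGFB2, a ligand that needs the co-receptor TGFBR3 to bind well, was read by 5 probe sets. On 228121_at, TGFB2 had log2 signals of 11.33, 11.26 and 11.19 on the MYOSIN10 shRNA arrays, against 11.33, 11.15 and 11.31 on the scramble arrays, and the 95% interval of the log2 fold change ran from -0.20 to 0.19. On 209909_s_at, TGFB2 had 10.68, 10.66 and 10.78 on the MYOSIN10 shRNA arrays, against 10.84, 11.09 and 10.83 on the scramble arrays, a log2 fold change of -0.21 ± 0.099 (SE, limma adjusted p = 0.39). The groups on 209909_s_at were separated by 0.047, a gap smaller than the SD of either group. The other 3 probe sets gave -0.14, 0.14 and 0.46 with overlapping groups, so the TGFB2 probe sets had no common direction.

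Beyond the 10 genes, 82 pathway genes were taken from lists drawn from general knowledge, and each was read by its brightest probe set in a test of 14182 genes. Of these 82, 72 were measured: 2 rose, 1 fell and 69 missed the threshold. An unadjusted p under 0.05 was reached by 18 of them, and by 14.9% of all 14182 genes. Over all genes tested 1.61% were called (1.16% higher and 0.458% lower), and the median log2 fold change was 0.0093, against -0.018 over the 72. The counts ended at 1 called gene without MYOSIN10 shRNA array 1 or 3 or scramble array 1 or 3, and there were 11 without scramble array 2.

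Among 27 measured TGF-beta target genes, 2 rose and 25 missed the threshold. Their median log2 fold change was 0.11, and 8 reached an unadjusted p under 0.05 (14.9% of all genes did). NEDD9, a focal adhesion scaffold that TGF-beta induces, had log2 signals of 10.20, 10.23 and 10.23 on the MYOSIN10 shRNA arrays, against 8.90, 9.54 and 8.81 on the scramble arrays. NEDD9 rose 2.2-fold (log2 fold change 1.14 ± 0.17 SE, limma adjusted p = 0.0061), and scramble array 2 was the closest of its group to the knockdown arrays. A second NEDD9 probe set gave 1.16 and was called among all probe sets (202150_s_at, limma adjusted p = 0.00723), and the dimmer ones gave -0.17 and 0.58. NEDD9 kept its call in all 6 fits with 1 array left out, and lost it without the variance trend (limma adjusted p = 0.156). With a gene's probe sets averaged, NEDD9 stood at 0.68 and was not called (limma adjusted p = 0.125). BHLHE40, a transcriptional repressor, had 10.35, 10.25 and 10.28 on the MYOSIN10 shRNA arrays, against 9.77, 9.80 and 9.79 on the scramble arrays. BHLHE40 rose 1.42-fold (log2 fold change 0.51 ± 0.093 SE, limma adjusted p = 0.0187), while its dimmer second probe set stood at 0.011. With both averaged, BHLHE40 stood at 0.26 and was not called (limma adjusted p = 0.476). The call of BHLHE40 ended without MYOSIN10 shRNA array 1 (limma adjusted p = 0.125) or 3 (0.0986) or scramble array 1 (0.094) or 3 (0.0983).

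The next target genes by p were ID3 at 0.54 (limma adjusted p = 0.0976), ID1 at 0.53 (0.102) and KLF10 at 0.21 (0.152), none of them called. ID1 and ID3 are inhibitors of helix-loop-helix factors that respond to BMP as well as TGF-beta, and KLF10 is an early TGF-beta response gene. Knockdown and scramble arrays did not overlap for any of these 3, which their choice by small p made likely. Of all 27 measured target genes, 7 lay higher and 1 lower without overlap. Over all genes tested, 19.8% had groups that did not overlap (11.2% higher and 8.56% lower). CCN2, a matrix-associated protein and a widely used TGF-beta target, was the 1 that lay lower, at -0.21 (limma adjusted p = 0.18; chosen after its value was seen). By sign alone, 15 target genes were positive and 12 negative, so they did not all share a direction.

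Among 20 measured SMADs, enzymes and cofactors, 1 fell and 19 missed the threshold, and 7 reached an unadjusted p under 0.05 (14.9% of all genes did). The one that fell was NEDD4, a ubiquitin ligase whose WW domains bind PPxY motifs such as those of PMEPA1. NEDD4 had log2 signals of 11.05, 10.92 and 11.01 on the MYOSIN10 shRNA arrays, against 11.60, 11.28 and 11.62 on the scramble arrays. NEDD4 fell by 0.51 on the log2 scale (SE 0.10, limma adjusted p = 0.0326), a level 1.42-fold lower, and scramble array 2 was again the closest of its group. The call ended without any of the 5 arrays other than scramble array 2, with limma adjusted p-values from 0.0831 without MYOSIN10 shRNA array 2 to 0.174 without scramble array 1.

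SMURF2, a related ligase that SMAD7 brings to the receptor, stood at -0.37 (limma adjusted p = 0.0511 over genes) and was not called. It had log2 signals of 13.92, 14.13 and 13.84 on the MYOSIN10 shRNA arrays, against 14.32, 14.25 and 14.42 on the scramble arrays. The other 3 SMURF2 probe sets gave -0.44, -0.33 and -0.43, and the first of these passed among all probe sets tested (230820_at, limma adjusted p = 0.029). SMURF1 at -0.30 (limma adjusted p = 0.199) and WWP1 at -0.24 (0.213) were not called. The other tested SMURF1 probe sets disagreed, at -0.023 and at -1.16 on the dim 232665_x_at (limma adjusted p = 0.0828 over probe sets). The other WWP1 probe set gave -0.34 and was not called. Of the 7 related ligases measured, NEDD4 included, 4 had negative and 3 positive log2 fold changes. The positive ones were NEDD4L at 0.20, ITCH at 0.16 and WWP2 at 0.13, none of them called. The next brightest NEDD4L probe set gave -0.30, so the family had no common direction.

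Receptor partners held 0 calls among 14 measured genes, with 2 at an unadjusted p under 0.05. Over all genes tested these shares were 1.61% and 14.9%. The activin receptor ACVR1B stood at 0.31 (limma adjusted p = 0.256), the activin receptor ACVR2B at -0.41 (0.283) and BAMBI, a decoy receptor, at -0.21 (0.421). LDLRAD4, a relative of PMEPA1 that also restrains SMAD activation, stood at -0.018 with a 95% interval from -0.99 to 0.95 (chosen for this relation after its value was seen). Its log2 signals were low and variable, with group means of 6.0 ± 0.78 in MYOSIN10 shRNA cells and 6.02 ± 0.59 in scramble cells (SD, n = 3 each).

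Genes of ligand latency and activation held 0 calls among 12 measured, with 1 at an unadjusted p under 0.05 and 10 negative log2 fold changes. Over all genes tested, 1.61% were called, 14.9% reached an unadjusted p under 0.05 and 51.8% had positive log2 fold changes. NRROS, which anchors latent TGF-beta on myeloid cells, stood at 0.97 (limma adjusted p = 0.12). THBS1, a matrix protein that can activate latent TGF-beta, stood at -0.10 (0.509), and FURIN, the protease that cleaves the TGF-beta precursor, at -0.25 (0.62).

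**Figure D4:**
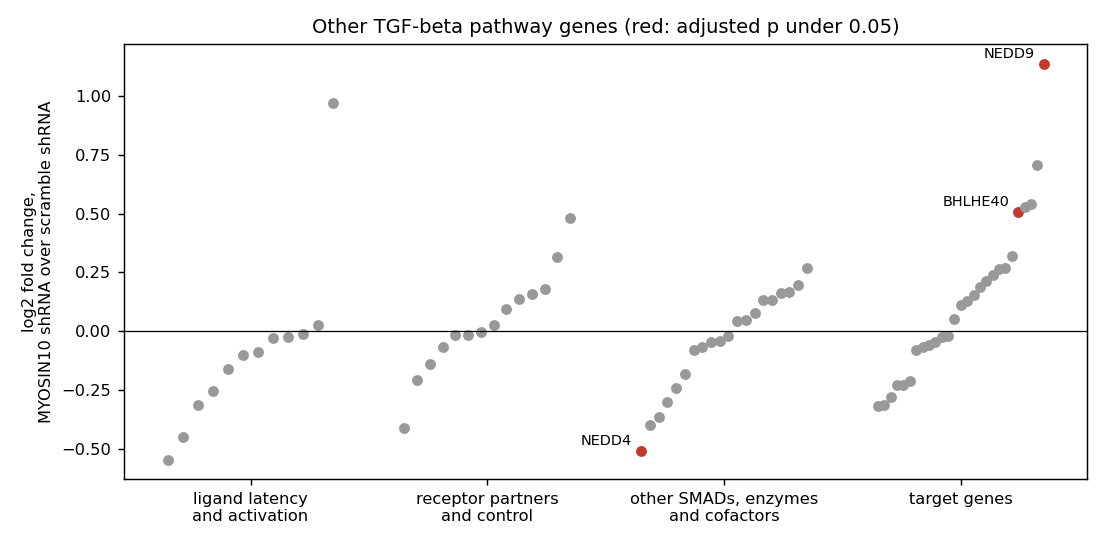
Log2 fold change of MYOSIN10 shRNA over scramble shRNA for the measured genes of 4 TGF-beta lists, 1 point a gene, ordered by value within a list, with called genes in red. NEDD9 (1.14) and BHLHE40 (0.51) are the called target genes and NEDD4 (-0.51) the called enzyme, and the grey points of each list lie on both sides of 0.

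The genes whose centred log2 signals lay nearest to those of PMEPA1 over the 6 arrays were DENND6A, SCCPDH, NXF3, UGT8 and THBS2. Their root mean square differences from PMEPA1 were 0.128, 0.128, 0.150, 0.163 and 0.186 on the log2 scale, and their log2 fold changes 1.35, 1.63, 1.26, 1.35 and 1.64. Likeness over 6 arrays in 2 groups is mostly likeness of the group difference, and no other pathway gene named here was among the 5.

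Across the alternative settings, the log2 fold change of PMEPA1 on 222449_at stayed between 1.45 and 1.67, that of 222450_at between 0.98 and 1.45, and that of 217875_s_at between 0.92 and 1.20. TGFBR2 on 208944_at ran from -0.69 to -0.41 and was below 0 in all 15, TGFBR1 on 224793_s_at ran from 0.21 to 0.29, and SMAD7 from 0.058 to 0.23. The direction of PMEPA1 was fixed by how it was chosen, so its range describes the size of the difference and not its stability.

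**Figure D5:**
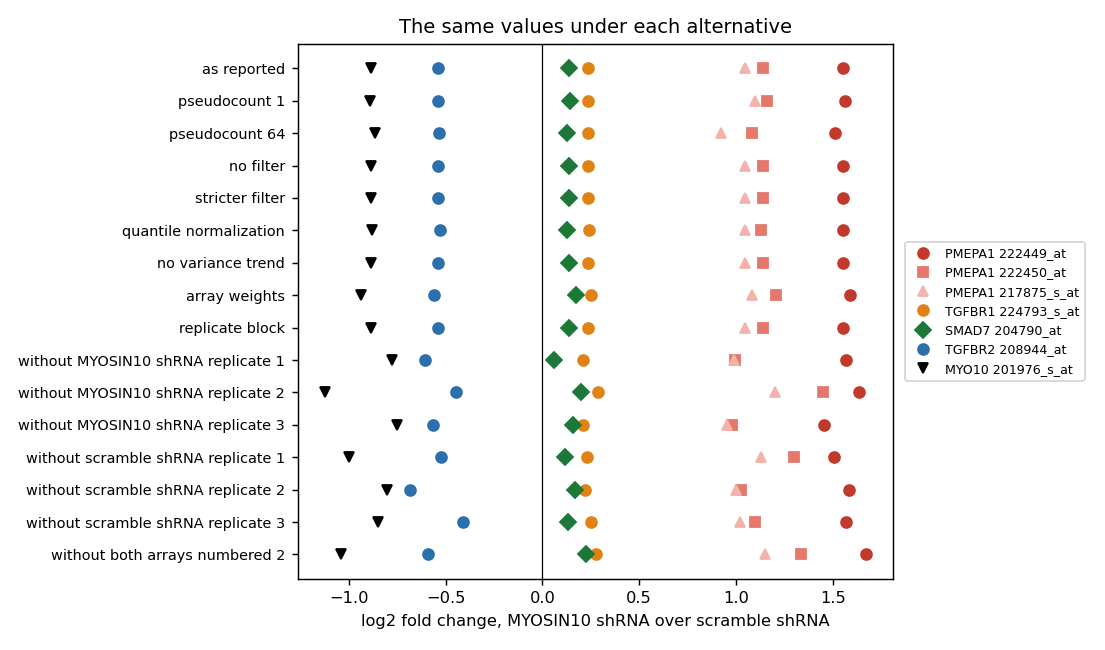
Log2 fold change of MYOSIN10 shRNA over scramble shRNA for 7 probe sets, as reported and under each of 15 alternative settings (1 line each). PMEPA1 stays to the right of 0 in every line (0.92 to 1.67) and TGFBR2 and MYO10 to the left, and SMAD7 stays between 0.058 and 0.23.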

How the data were processed

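Total RNA of 6 MDA-MB-231 samples was labelled with biotin by a 3′ in vitro transcription kit and hybridised to 1-colour arrays, per the labels' protocols, which favours the 3′ end of transcripts. The deposited values are log2 signals made by the authors with MAS5, per the submitters' processing notes, and MAS5 scales each array to a common level. The log2 scale was read from the values: on the linear scale the mean after trimming 2% at either end was 500.1 on every array. Which version, scaling target and lower limit MAS5 had is not given in the sources used here. After this scaling a change in the total RNA of a cell cannot be seen. Arrays have no read depth, and their number, 3 per group, limits the precision.

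The 62 control probe sets were left out. From the deposited log2 values linear signals were recovered, and log2 was taken again after adding 16, which understates changes of dim probe sets. Testing needed a signal at or above the 40th percentile of the array on 3 or more of the 6 arrays, so a probe set could pass through 1 group alone. Symbols came from the platform annotation, which gives 1 symbol to 41091 probe sets, several to 1801 and none to 11721, and 41037 were updated through the RefSeq table of GRCh38.p14. Every probe set naming a listed gene named it alone. The comparison used limma 3.58.1 under R 4.3.3 (eBayes with a variance trend, group as the only term, two-sided), adjusted by Benjamini-Hochberg over all 33334 probe sets or, for the pathway lists, over 14182 genes, each by its brightest probe set. Every adjusted p in the text is from these fits or their named alternatives. The fit was tested before use on simulated data with 200 known changes among 33334 probe sets. It called 52.4% of simulated log2 changes of 1 and 9.4% of those of 0.5, and 2.72% of its calls in the simulation were false. A probe set that was not called may therefore still differ. These shares hold for the simulated data only. The share of false calls on the real arrays, where a scramble array stood apart from its group, was not tested.

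The members, lists, tests and alternatives were chosen with earlier results of these data known. The naming rule took every probe set of the 10 genes and MYO10, then from each list the called genes and up to 3 others with the smallest p, and the 5 genes most like PMEPA1. Python 3.11.15 with matplotlib 3.10.9 drew the figures.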

Additional observations from a re-analysis of the deposited data

How the results depend on the processing

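Signs of MYO10 on 201976_s_at, NEDD9, BHLHE40 and NEDD4 held under every alternative run, and no called value turned. Of the 10 genes' 31 probe sets, 3 were called as reported. The count was 2 to 4 with another pseudocount or filter, quantile normalization, array weights, the replicate block or both arrays numbered 2 left out, 0 without the variance trend (5 at an unadjusted p under 0.05) and 1 to 4 with 1 array left out. Over all probe sets, 354 were called as reported, 175 with no filter, 0 without the variance trend (3661 at an unadjusted p under 0.05), 948 with array weights, 891 with the replicate block, 1658 without both arrays numbered 2 and 59 to 1465 with 1 array left out, the highest without scramble array 2 and at most 110 without MYOSIN10 shRNA array 1 or 3 or scramble array 1 or 3. Over genes, 229 were called as reported, 126 with no filter, 7 without the variance trend, 791 with array weights, 611 with the replicate block, 1226 without both arrays numbered 2, 111 with probe sets averaged per gene and 66 to 964 with 1 array left out. Of the other pathway genes 3 were called as reported, 0 without the variance trend (13 at an unadjusted p under 0.05) or with the mean of probe sets, 7 with array weights, 5 with the replicate block, 13 without both arrays numbered 2 and 1 to 11 with 1 array left out. MYO10 stood at -0.88 and lost its call with no filter (limma adjusted p = 0.106) and without the variance trend (0.309), and it ran from -1.12 to -0.75 with 1 array left out. The cause of these differences was not tested. TGFBR2 on 208944_at passed with array weights (limma adjusted p = 0.02), with the replicate block (-0.54, 0.00232), without scramble array 2 and without both arrays numbered 2 (-0.59, 0.00344). Deviations from the group means correlated at 0.059, 0.16 and 0.041 between samples numbered 1, 2 and 3. MYOSIN10 shRNA sample 3 and scramble sample 1 reached 0.065, so the numbers were not taken to pair the samples and the replicate block is only a setting. Each sample numbered 2 correlated at -0.11 to -0.073 with samples 1 and 3 of the other group. What the samples numbered 2 may share was not tested. With 3 arrays a group, the intervals of many ligand, SMAD and brake probe sets leave room for changes in either direction.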
